A study of Homo sapiens with 2 samples.

Results

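The genes described here are 35 zinc finger genes of 19p13.2, on the short arm of chromosome 19 around ZNF700, among the 37122 genes of an RNA-seq count table. They were chosen by their counts, because many neighbouring genes there had fewer reads in Ramos640 cells than in Ramos cells. That difference is therefore given as a description with no test. Ramos is a human Burkitt's lymphoma cell line of B-cell origin, with no drug treatment in its labels. Ramos640 was derived from Ramos as a line that withstands complement-mediated killing by rituximab, an antibody against CD20, and was kept with rituximab and 20% normal human serum (NHS) given every 21 days. The labels give the rituximab concentration as 640 mg/mL, whereas the methods of the study use μg/mL. RNA from 3 passages was pooled into 1 library per cell line, so no difference below has a replicate check, Ramos640 stands for a single derived line, and a difference between the cell lines and a difference between their libraries cannot be told apart. All intervals cover counting error only.

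Proteins of this family bind DNA through a row of Cys2His2 zinc fingers joined by a conserved linker. Most genes of the primate clusters on chromosome 19 also encode a KRAB domain, which recruits the corepressor TRIM28 and, through it, the histone methyltransferase SETDB1 and the HP1 proteins that keep chromatin silent. The family is best known for silencing transposable elements, and its genes arose by repeated local duplication, so that neighbours share long stretches of sequence.

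The members formed 2 runs along the chromosome. The first run held 10 genes between ZNF559 and ZNF846 (chr19:9434448-9903856, GRCh37), and the second held 25 genes between ZNF653 and ZNF791 (chr19:11594242-12750912). A gap of 1.69 Mb lay between them. The promoters of 5 members are shown as the RefSeq sequence of 300 bases, 250 before the start of the gene and 50 after it, on GRCh38.p14. ZNF439 (chr19:11848476-11848775, plus strand) and ZNF844 (chr19:12064481-12064780, plus strand) had the lowest Ramos640 levels relative to Ramos among the members with at least 100 reads in both libraries together. ZNF653 (chr19:11505790-11506089, minus strand) and ZNF136 (chr19:12162846-12163145, plus strand) had the highest. ZNF700 (chr19:11924857-11925156, plus strand) is the gene after which the region was located, and was added after its values were seen. Capitals mark matches, on either strand, to the motifs searched, which were the GC box GGGCGG, the CCAAT box, the ETS factor motif CCGGAAG, the NRF1 motif, the YY1 motif AAGATGGCG and the TATA box TATAAA. The letters CCAATCAG and the octamer ATGCAAAT, which POU factors bind, were chosen after the sequences were seen.
ZNF439: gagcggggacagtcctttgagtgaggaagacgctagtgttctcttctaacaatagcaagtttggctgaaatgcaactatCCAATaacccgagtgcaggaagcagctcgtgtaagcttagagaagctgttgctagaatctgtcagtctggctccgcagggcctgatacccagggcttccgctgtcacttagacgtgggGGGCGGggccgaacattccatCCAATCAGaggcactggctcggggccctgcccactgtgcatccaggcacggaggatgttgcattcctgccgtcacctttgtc
ZNF844: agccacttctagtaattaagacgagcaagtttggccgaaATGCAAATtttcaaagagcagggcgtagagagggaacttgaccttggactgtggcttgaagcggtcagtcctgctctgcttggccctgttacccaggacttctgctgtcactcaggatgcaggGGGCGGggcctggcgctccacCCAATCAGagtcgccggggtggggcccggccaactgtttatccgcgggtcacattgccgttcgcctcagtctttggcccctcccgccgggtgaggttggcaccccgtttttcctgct
ZNF653: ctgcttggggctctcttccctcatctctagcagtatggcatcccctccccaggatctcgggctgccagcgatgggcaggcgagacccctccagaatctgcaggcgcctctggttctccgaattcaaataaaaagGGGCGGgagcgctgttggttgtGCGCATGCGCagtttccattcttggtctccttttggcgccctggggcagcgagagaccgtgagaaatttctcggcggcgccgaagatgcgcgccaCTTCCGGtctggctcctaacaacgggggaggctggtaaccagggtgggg
ZNF136: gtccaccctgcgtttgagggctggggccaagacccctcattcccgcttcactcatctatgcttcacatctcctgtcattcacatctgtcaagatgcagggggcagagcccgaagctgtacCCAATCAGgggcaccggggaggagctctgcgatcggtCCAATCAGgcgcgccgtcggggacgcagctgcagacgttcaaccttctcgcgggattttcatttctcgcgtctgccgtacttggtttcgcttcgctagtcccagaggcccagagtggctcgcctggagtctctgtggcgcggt
ZNF700: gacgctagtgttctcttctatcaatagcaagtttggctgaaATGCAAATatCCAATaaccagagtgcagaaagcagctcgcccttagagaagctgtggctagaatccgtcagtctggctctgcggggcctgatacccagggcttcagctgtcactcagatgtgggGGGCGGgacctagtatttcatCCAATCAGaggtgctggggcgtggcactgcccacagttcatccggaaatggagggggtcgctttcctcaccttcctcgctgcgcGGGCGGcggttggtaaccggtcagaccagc

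The promoters of the second run resembled each other. CCAATCAG, each match of which also holds a match to the CCAAT box, was present in 21 of the 24 second-run windows and in 0 of the 8 first-run windows. It was present in 65.6% of the 32 member windows, in 3.97% of the 34943 RefSeq windows of this length and in 11.6% of the 605 windows of other zinc finger genes. Windows of genes that arose from each other share their ancestry, so these are not independent occurrences. The shorter CCAAT was present in 78.1% of the member windows, 34.6% of all windows and 40.8% of the windows of other zinc finger genes.

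The GC box was present in 78.1% of the member windows, 44.9% of all windows and 58.3% of the windows of other zinc finger genes. TATAAA was present in 0 member windows, in 11.6% of all windows and in 4.6% of those of other zinc finger genes. The octamer ATGCAAAT was present in 7 member windows, those of ZNF441, ZNF442, ZNF564, ZNF625, ZNF69, ZNF700 and ZNF844, all in the second run. That is 21.9% of the member windows, against 1.77% of all windows and 2.48% of those of other zinc finger genes. AAGATGGCG was present in 3 member windows, those of ZNF121, ZNF561 and ZNF562 in the first run. That is 9.4%, against 1.75% of all windows and 2.15% of those of other zinc finger genes. The ETS motif was present in 4 member windows (12.5%), near the 10.2% of all windows and below the 34.4% of those of other zinc finger genes. The NRF1 motif was present in 1 (3.1%), that of ZNF653, against 1.23% of all windows and 3.14% of those of other zinc finger genes. ZNF812, ZNF763 and ZNF559 were not matched to a promoter. For the 2 members with overlapping windows, ZNF44 and ZNF799, the window with the lower start was used. The windows of ZNF490 and ZNF791, which start in opposite directions, overlap.

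The coding sequences also shared long identical runs. ZNF442 (chr19:12461245-12461362, minus strand, GRCh37) and ZNF443 (chr19:12541784-12541901, minus strand) shared 118 bases, and ZNF440 (chr19:11943134-11943227, plus strand) and ZNF700 (chr19:12060486-12060579, plus strand) shared 94 bases. They are shown because the reads of such genes can be hard to assign to 1 of them. Capitals mark the bases that encode the linker between neighbouring fingers.
ZNF442 and ZNF443: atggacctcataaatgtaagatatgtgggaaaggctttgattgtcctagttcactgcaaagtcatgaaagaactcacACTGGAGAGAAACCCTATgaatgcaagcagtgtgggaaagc
ZNF440 and ZNF700: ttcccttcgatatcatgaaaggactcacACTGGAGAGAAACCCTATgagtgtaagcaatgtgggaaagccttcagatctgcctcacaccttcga
The longest run in common, of 174 bases, was that of ZNF799 and ZNF443. In ZNF443, 35.5% of the distinct 50-base windows of its longest transcript recurred in other genes, followed by ZNF799 with 20.6%. Genes whose exons overlap the member were left out of these shares. The treatment of reads with more than 1 matching gene is not given in the sources used here, so single values of such pairs are uncertain.

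Of the 35 members, 31 had at least 10 reads in both libraries together and 27 had at least 100. The other 4 were ZNF560 with 0 reads in each library, ZNF426 with 1 in Ramos and 4 in Ramos640, ZNF812 with 3 and 0, and ZNF625 with 5 and 1. No fold is given for these 4. A count of 0 allows up to 3 reads, or 0.0789 CPM in Ramos and 0.0972 CPM in Ramos640. ZNF812 is annotated as a pseudogene, and the other 34 members as protein-coding.

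Levels of different genes were set side by side as normalised reads per kb of the longest transcript. By the mean of both libraries, ZNF266 was the most abundant member, with 312 normalised reads per kb in Ramos and 316 in Ramos640. ZNF561 followed with 94.6 and 105, then ZNF653 with 83.8 and 109.7. ZNF627 had 117.5 and 75.7, and ZNF823 had 103.5 and 68.6. The last 4 thus lay close together below ZNF266, and their order differed between the libraries: ZNF627 and ZNF823 were above ZNF561 and ZNF653 in Ramos and below them in Ramos640.

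The log2 fold change of Ramos640 against Ramos was negative for 23 of the 31 measured members and positive for 8. Of these members, 14 were lower by more than 1.5-fold, or 45.2%, where 17.3% of the 18778 genes with at least 10 reads were, and 0 were higher, where 14.6% of all genes were. The 95% interval lay below 0 for 16 members, against 31.6% of all genes, and above 0 for 1, ZNF653, against 29.6% of all genes. The members' median was -0.54 (quartiles -0.75 and -0.012) and the median of all genes -0.015. Summed over the members, 7756 reads in Ramos faced 4987 in Ramos640, a log2 ratio of -0.26 (95% interval -0.31 to -0.20). The rule used these values, so the counts above the background are a property of how the members were chosen. In RNA of whole cultures, fewer cells that transcribe these genes and fewer transcripts per cell cannot be told apart.

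**Figure D1:**
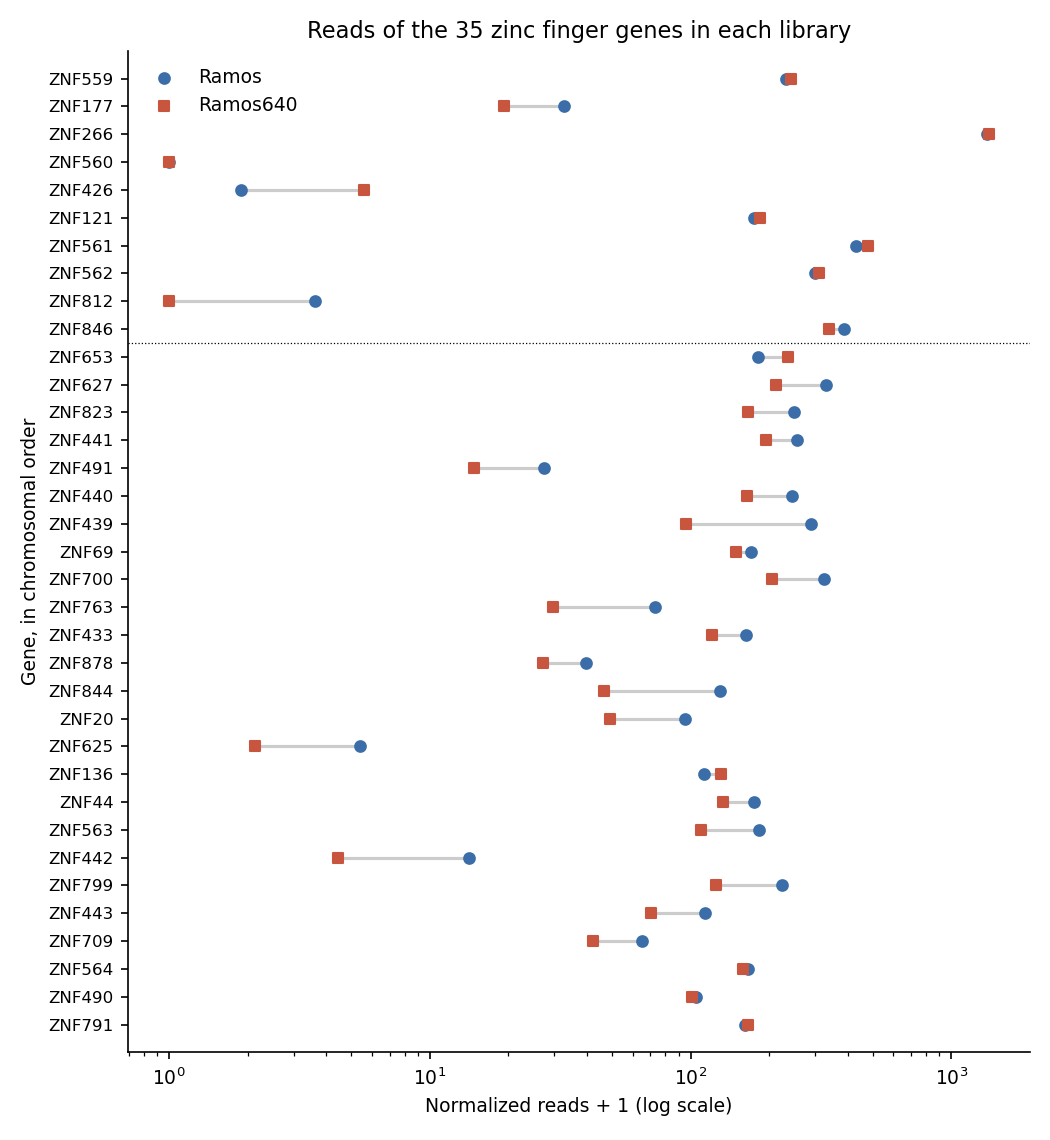
Normalised reads plus 1 (log scale) of all 35 members in order along chromosome 19, with a circle for Ramos, a square for Ramos640, a grey line joining them and a dotted line between the runs. Of the 24 measured genes of the second run, 21 have the Ramos640 square to the left of the Ramos circle, while in the first run the symbols nearly coincide for the measured genes except ZNF177 and ZNF846, and the 4 members with under 10 reads lie at the far left.

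The low values fell in the second run. There 13 of 24 measured genes were lower by more than 1.5-fold (54.2%, against 17.3% of all genes), and 0 were higher (against 14.6%). A negative log2 fold change was found for 21 of the 24, against 9612 of all 18778 genes. The median was -0.61, and the summed reads were 4416 in Ramos and 2393 in Ramos640, a log2 ratio of -0.50 (95% interval -0.58 to -0.43). In the first run, 1 of 7 measured genes was lower by more than 1.5-fold (14.3%, near the 17.3% of all genes). There 0 intervals lay below 0, against 31.6% of all genes. Its median was 0.051, or -0.029 when the libraries were scaled by their total counts, and its summed reads were 3340 and 2594, a log2 ratio of 0.016 (-0.058 to 0.091). The split into runs rests on place alone, but it was drawn with the values known and was not tested.

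Within the first run, the abundant genes had nearly the same normalised level in both libraries. ZNF266 had 1569 reads in Ramos and 1219 in Ramos640, which after normalisation was a log2 fold change of 0.017 (-0.092 to 0.13). ZNF561 had 489 and 418 reads (0.15, -0.037 to 0.35), and ZNF562 had 342 and 272 (0.051, -0.18 to 0.28). ZNF559 (264 and 212 reads, 0.064), ZNF121 (199 and 161 reads, 0.075) and ZNF846 (441 and 296 reads, -0.19) had intervals that held 0 too. Under total counts the values of ZNF266, ZNF562, ZNF559 and ZNF121 turned slightly negative. ZNF177 was the member past 1.5-fold in this run, with 36 reads and 16 reads, a log2 fold change of -0.76 whose interval, -1.74 to 0.098, held 0. Its exons overlap the readthrough gene ZNF559-ZNF177, which had 37 and 22 reads.

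The first gene of the second run, ZNF653, had 206 reads in Ramos and 207 in Ramos640, or 0.39 on the log2 scale (0.10 to 0.67). Its transcript, with a GC content of 65.4%, was the most GC-rich of the members. From the next gene, ZNF627, to ZNF709, the stretch held 20 measured genes, of which 19 had a negative log2 fold change. Of the 20, 13 were lower by more than 1.5-fold (65%, against 17.3% of all genes). Their summed reads were 3719 and 1816, a log2 ratio of -0.65 (-0.74 to -0.57), and their median was -0.65. The ends of this stretch were set after the values were seen.

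ZNF439 and ZNF844 had the lowest values among the well-counted members. ZNF439 had 328 reads in Ramos and 83 in Ramos640, or -1.59 on the log2 scale (-1.97 to -1.25) or 3.01-fold lower. ZNF844 had 147 and 40 reads, a log2 fold change of -1.48 (-2.04 to -0.98) or 2.78-fold lower. Both carry the CCAATCAG match in the promoters shown above, as does ZNF136, which was not lower. ZNF763 followed with 82 and 25 reads, a log2 fold change of -1.30 (-2.04 to -0.67). ZNF442 had 15 reads in Ramos and 3 in Ramos640, or -1.68 on the log2 scale with a wide interval of -4.37 to -0.12.

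The genes next in size were spread over the same stretch. ZNF20 had 107 and 42 reads (-0.95, -1.52 to -0.44), but its exons overlap the readthrough gene ZNF625-ZNF20, which had nearly the same counts, 107 and 41. ZNF799 had 255 and 109 reads (-0.84, -1.18 to -0.52), and its near neighbour ZNF443, with which it shares sequence, had 128 and 61 (-0.68, -1.15 to -0.24). ZNF491 had 30 and 12 reads and a log2 fold change of -0.89 whose interval, -2.04 to 0.067, held 0. ZNF563, which overlaps no exon of another gene, had 208 and 95 reads (-0.74, -1.12 to -0.39).

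Several well-counted genes lay close to the 1.5-fold limit. ZNF700 had 370 reads in Ramos and 179 in Ramos640, or -0.66 on the log2 scale (-0.93 to -0.41). ZNF627 had 376 and 186 reads (-0.63, -0.90 to -0.38), and its exons overlap those of ACP5 on the other strand. ZNF823, the member just inside the limit, had 283 and 144 reads (-0.59, -0.89 to -0.30), and ZNF440, the member just outside, had 279 and 143 (-0.58, -0.88 to -0.29). Their intervals overlap almost wholly, so the limit does not part them. ZNF709 had 73 and 36 reads (-0.63, -1.26 to -0.044). ZNF878, with 44 and 23 reads (-0.54, -1.35 to 0.20), was not past the limit.

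The other genes of the stretch had values nearer to 0. ZNF433 had 185 reads in Ramos and 105 in Ramos640 (-0.43, -0.80 to -0.083), ZNF441 had 290 and 170 (-0.39, -0.67 to -0.11) and ZNF44 had 198 and 116 (-0.39, -0.73 to -0.052). These intervals lay below 0, whereas those of ZNF69, with 194 and 130 reads (-0.20, -0.53 to 0.13), and ZNF136, with 127 and 114 reads (0.22, -0.15 to 0.60), held 0. ZNF136 was the exception in direction among the genes from ZNF627 to ZNF709. After ZNF709 the values returned to near 0. The last 3 genes, ZNF564 (189 and 138 reads), ZNF490 (118 and 88) and ZNF791 (184 and 144), had log2 fold changes of -0.072, -0.042 and 0.027, the last of which was negative under total counts.

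**Figure D2:**
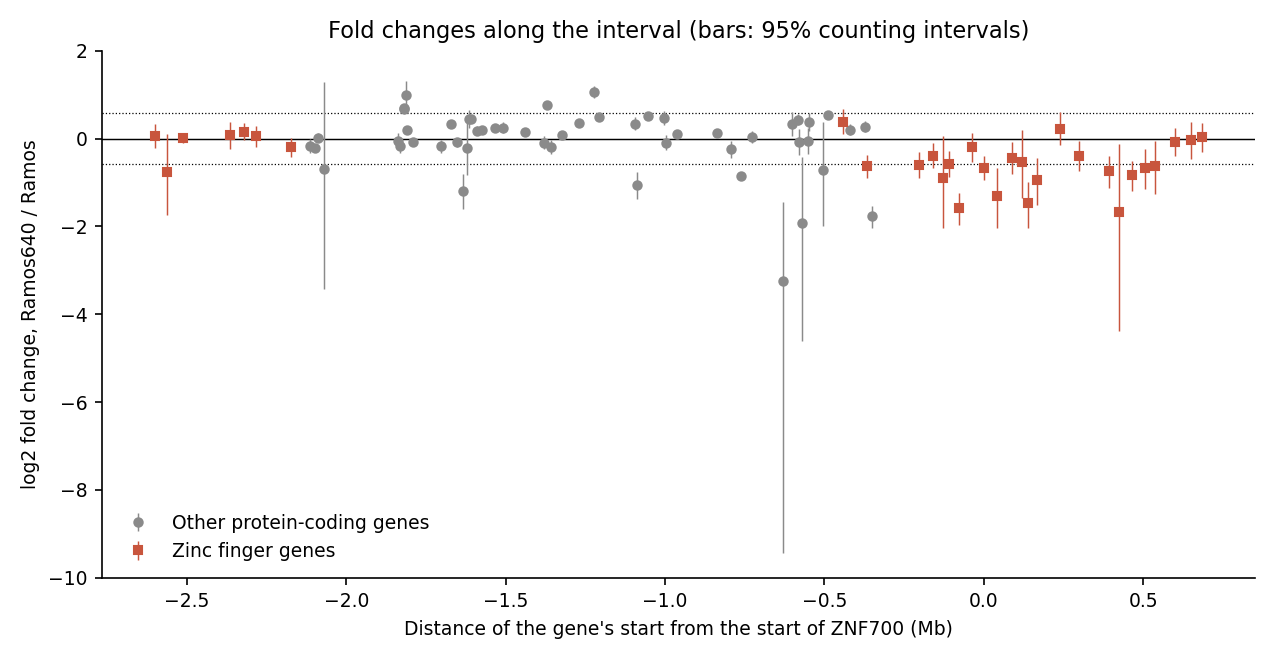
Log2 fold change of Ramos640 against Ramos by the distance of each gene's start from that of ZNF700 (Mb, GRCh37) for the 31 measured members (squares) and the 52 other protein-coding genes of the interval (circles), with 95% counting intervals as bars and 1.5-fold limits as dotted lines. The members from ZNF627 to ZNF709 lie below 0 except ZNF136, and no other protein-coding gene lies between the members from ZNF823 on.

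The strand of a gene did not part the members of the second run. Of the 11 genes on the plus strand 6 were lower by more than 1.5-fold, with a median of -0.63. Of the 13 on the minus strand 7 were, with a median of -0.59. The share over all genes was 17.3%. The CCAATCAG match, present in 21 of the 24 second-run windows, was too common to show whether it parts them. It was present in 11 of the 12 second-run windows of genes that were lower by more than 1.5-fold and in 10 of the other 12.

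Overlaps and shared sequence touched many members. The exons of 22 members overlap another annotated gene (20 of them measured), and the counting is not stated to use strand. Of the 11 measured members without such an overlap, 4 (36.4%) were lower by more than 1.5-fold (ZNF823, ZNF439, ZNF563 and ZNF442), with a median of -0.39. Of the 23 with at most 5% of their windows in other genes, 10 were (43.5%). Genes with overlapping exons were left out of that share, so these 23 are not free of shared sequence. ZNF20, at 0.51%, is among them although it overlaps ZNF625-ZNF20. With at least 100 reads, 11 of 27 members (40.7%) were lower by more than 1.5-fold, with a median of -0.39. The share over all genes with at least 10 reads was 17.3%.

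The transcripts of the members were poor in GC, and fold changes in these libraries moved with GC content. The median GC content of the longest transcript was 42.5% for the members and 48.0% for all protein-coding genes. Over the 10241 protein-coding genes that had 100 reads or more, fold change correlated with GC content (Pearson's r = 0.28, Spearman's rho = 0.42), a description over genes of the same 2 libraries. The trend, taken from the median of the 500 such genes nearest in GC content, was -0.19 at the median member. Its part in the members' values was measured by taking the trend away.

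After removal of the trend the members' median was -0.36, and 22 of 31 values were negative. The median was -0.098 for the 27 members with at least 100 reads, and also for the 11 whose exons overlap no other gene. After it 8 members were lower by more than 1.5-fold, where 14.9% of 15781 genes with a GC content were. They were ZNF177 in the first run and ZNF491, ZNF439, ZNF763, ZNF844, ZNF20, ZNF563 and ZNF442 in the second. ZNF439 was at -1.32 and ZNF844 at -1.35 after removal, still the lowest of the members with at least 100 reads. ZNF700, the gene at the centre of the region, was at -0.46, ZNF627 at -0.45 and ZNF823 at -0.39, no longer past 1.5-fold. The second run had a median of -0.39 and the first run one of 0.23.

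**Figure D3:**
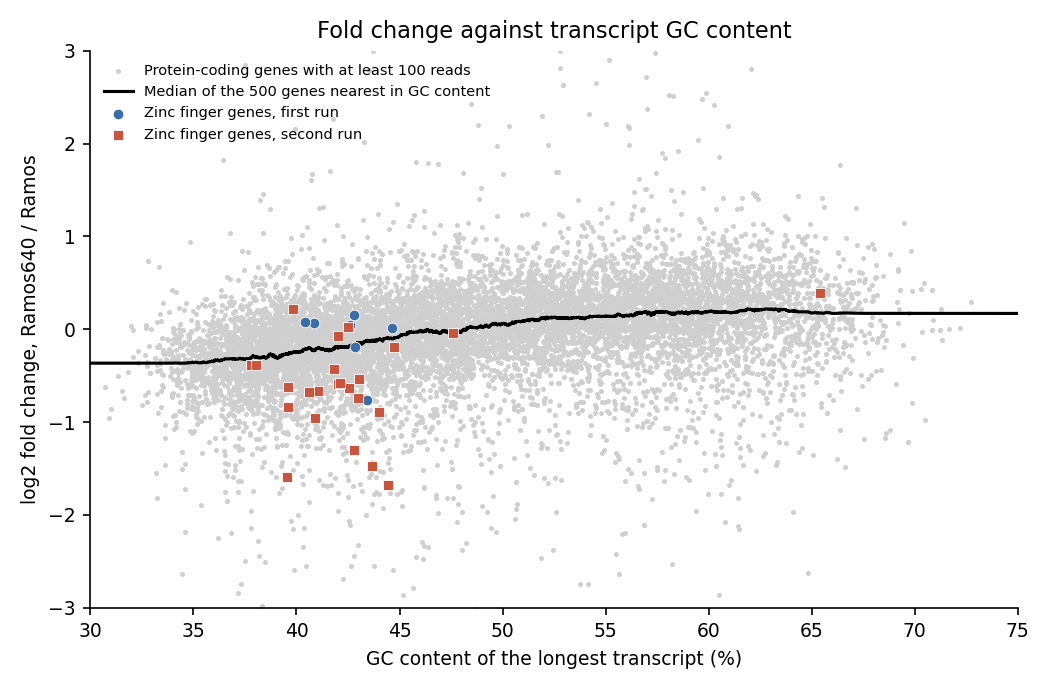
Log2 fold change of Ramos640 against Ramos by GC content of the longest transcript (percent) for protein-coding genes with at least 100 reads (grey), with the median of the 500 nearest genes as a line and the 31 measured members as coloured points, circles for the first run and squares for the second. A few grey points lie beyond the axis limits. Most members of the second run lie below the line, and those of the first run lie on or above it except ZNF177 and ZNF846.

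Genes of like GC content or read number gave other backgrounds. Among 2314 protein-coding genes with at least 100 reads and a GC content between the members' 10th and 90th percentile, 15.6% were lower by more than 1.5-fold. Among 7434 protein-coding genes with a number of reads in the members' range, 21.7% were. Among the members themselves the fold change had little relation to GC content, with Spearman's rho of 0.025 over 31 genes and Pearson's r of 0.27, which was 0.0034 without ZNF653.

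Other features were compared with the fold change over the members, which share the libraries and in part their sequence. The level per kb gave r = 0.46 and rho = 0.39, but the level contains the same reads as the fold change. Transcript length gave r = 0.31 and rho = 0.33 over all 31 members and r = 0.088 over the 24 of the second run. The number of CpG dinucleotides in the promoter window gave r = 0.39 and rho = 0.47 over 29 members, and r = 0.34 and rho = 0.40 over the 23 of the second run. The share of windows in other genes gave r = -0.18 and rho = -0.23 over 31 members, and r = -0.18 and rho = -0.47 over the 24 of the second run.

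The other zinc finger genes of the genome are given as a description, because the members were chosen for low values and these genes were not. Of 391 with at least 10 reads, 70 were lower by more than 1.5-fold, or 17.9%, near the 17.3% of all genes. Their median was -0.11, against -0.54 for the members, a gap that the choice of members favours. After removal of the GC trend the median of these 391 genes was -0.0010. Their median GC content was 43.3%, and that of the members was 42.5%. On chromosome 19 the other 172 had a median of -0.071, and the 219 on other chromosomes one of -0.17.

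Zinc finger genes of chromosome 19 were grouped into runs wherever starts lay no more than 1 Mb apart, which gave 16 runs, 9 of them with at least 4 genes read. In this grouping the second run also takes in ZNF625-ZNF20 and had a median of -0.63. The run from ZNF302 to ZNF792 had a median of -0.70, but over 4 genes only. The runs from ZNF175 to ZNF331 and from ZNF101 to ZNF254 both had medians of -0.34. By more than 1.5-fold, 10 of 30 genes of the former (33.3%) and 4 of 26 of the latter (15.4%) were lower. The share over all genes was 17.3%. The run from ZNF628 to ZNF446, the one with the most genes, had a median of 0.10. After removal of the GC trend the medians were -0.39 for the members' run, -0.63 for ZNF302 to ZNF792, -0.12 for ZNF175 to ZNF331 and -0.035 for ZNF101 to ZNF254. The differences between runs were not tested.

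**Figure D4:**
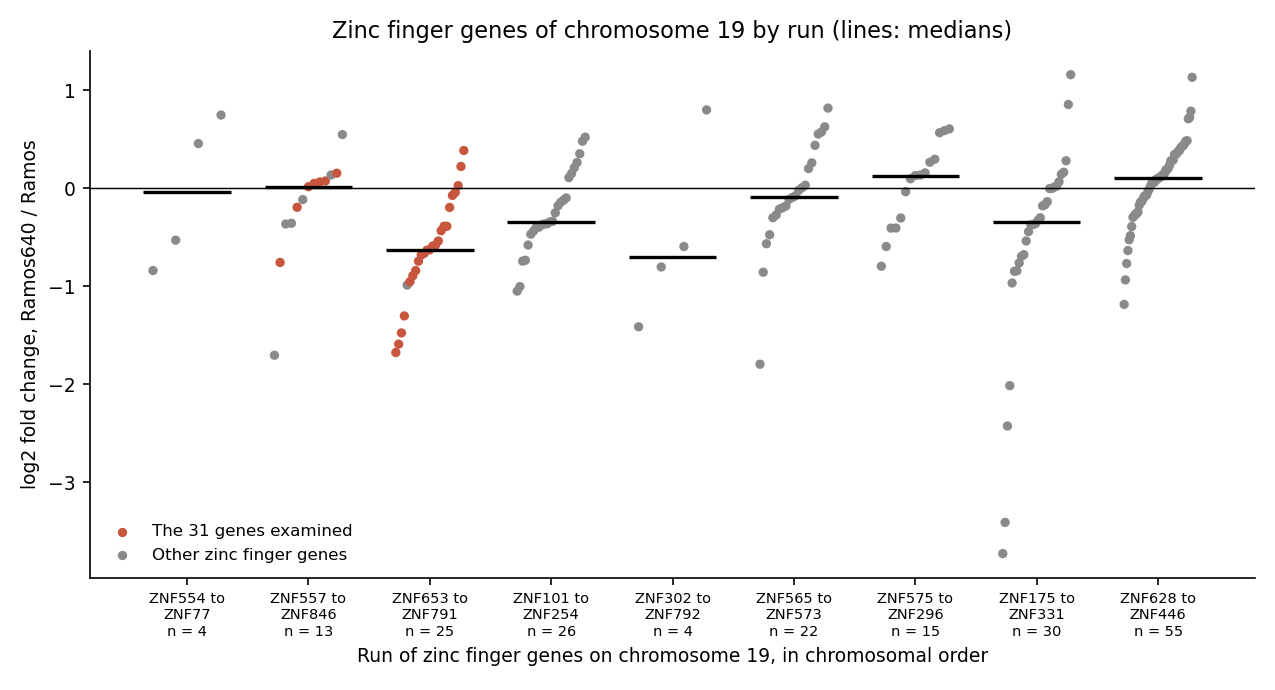
Log2 fold change of Ramos640 against Ramos for the zinc finger genes of chromosome 19 with at least 10 reads in the 9 runs with at least 4 such genes, in chromosomal order, with horizontal lines for the medians and the 31 measured members coloured. The run from ZNF653 to ZNF791 has a median of -0.63, lower than those of the other runs except ZNF302 to ZNF792, at -0.70.

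The other protein-coding genes of the interval had no common direction. The 52 such genes of the 3.32 Mb from ZNF559 to ZNF791 had a median of 0.13. By more than 1.5-fold, 8 were lower (15.4%, against 17.3% of all genes) and 5 higher (9.6%, against 14.6%). Their GC content, 60.3% at the median, was far above that of the members, and after removal of the GC trend their median was -0.046. The last of them, ACP5, ends at position 11690808, so none lay among the members from ZNF823 on. ACP5 alone lay within the stretch from ZNF627 to ZNF709, so the median of these genes does not describe neighbours inside that stretch. ACP5, an acid phosphatase of macrophages and osteoclasts, had 768 reads and 172 reads, a log2 fold change of -1.77 (-2.02 to -1.54), and its exons overlap those of ZNF627.

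Among the 27 partners through which KRAB proteins repress, 1 was lower and 1 higher by more than 1.5-fold. That is 3.7% each, against 17.3% of all genes lower and 14.6% higher. The lower gene was CBX3, an HP1 protein (13064 and 6449 reads, -0.64), and the higher was DNMT3B, a DNA methyltransferase (934 and 1582 reads, 1.14). TRIM28 had 30623 reads in Ramos and 33270 in Ramos640 (0.50, 0.48 to 0.52). SETDB1 had 2396 and 1823 (-0.013, -0.10 to 0.075), and the HP1 protein CBX5 had 12801 and 7907 (-0.31, -0.35 to -0.27). The median of the 27 partners was -0.012. Smaller differences were common, since 9 of the 27 had an interval below 0 and 10 had one above 0. Over all genes these shares were 31.6% and 29.6%. Under total counts 4 of the 27 were past 1.5-fold.

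The Ramos library held 38030090 reads and the Ramos640 library 30871826. The labelled cell type was checked by marker genes. All 8 B-cell markers were read, with summed reads of 176319 and 154018, and MS4A1, which encodes CD20, had 9654 and 1904. The log2 fold changes of these 8 ranged from -1.96 for MS4A1 to 0.64 for CD79B. The 4 T-cell markers summed to 6 and 32 reads, with 2 of them at 0 in both libraries. Of the others, CD3E had 1 read in Ramos and 31 in Ramos640, and CD3G had 5 and 1. The 3 monocyte markers summed to 2 and 4 reads, and the 4 epithelial markers to 42 and 16. The 3 collagen genes used as fibroblast markers summed to 1283 reads in Ramos and 394 in Ramos640, and their part in the members' values was not tested.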

How the data were processed

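The authors trimmed adaptors from the Ion reads, aligned them to GRCh37 with MapSplice (version 2.1.6), and deposited raw counts per gene without normalization. The counting program, its annotation and its use of strand are not given in the sources used here. Genes were matched to the GENCODE annotation lifted to GRCh37 by symbol (26511 of 37122) or older symbol (2248), and promoters came from RefSeq on GRCh38.p14. Median-of-ratios size factors (1.14 for Ramos, 0.876 for Ramos640) set the scale of the deposited counts, and log2 fold changes used a pseudocount of 1. Genes with at least 10 reads in both libraries together were used, and a difference past 1.5-fold was counted. With 1 library per cell line no test or p-value was possible. Intervals are Clopper-Pearson at 95%. The GC trend was the median of the 500 protein-coding genes with at least 100 reads nearest in GC content. Alternatives were TMM (edgeR 4.0.16), total counts, other pseudocounts and minimums, 200 or 1000 genes in the trend, and leaving out members with overlapping exons. Scripts (Python 3.11.15, R 4.3.3) were tested on simulated data. The members, lists and runs were chosen with earlier results of these data known. All members were named, with TRIM28, SETDB1, CBX5 and partners past 1.5-fold, and the 5 largest rises and falls among other genes of the interval with at least 100 reads.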

Additional observations from a re-analysis of the deposited data

How the results depend on the processing

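Over the alternatives, 64 of 70 recomputed group values and 176 of 182 values of single members moved little or stayed on the same side of the 1.5-fold limit. No value past that limit changed sign. Counted among the 64, the members' median after removal of the GC trend ranged from -0.37 to -0.098, against -0.36 in the main setting. It was -0.098 with at least 100 reads, and also without members whose exons overlap other genes. Under total counts, which moved the median of all genes by -0.080, the log2 ratio of the members' summed reads was -0.34, the median of the other protein-coding genes of the interval 0.045 and the number of partners past 1.5-fold 4, and 28 members had negative values, because ZNF559, ZNF266, ZNF121, ZNF562 and ZNF791, all near 0, turned from positive to negative. The median of the first run did too, from 0.051 to -0.029. With at least 1 read, 1 member was higher by more than 1.5-fold (ZNF426, 1 and 4 reads). Without members whose exons overlap other genes, 4 were lower by more than 1.5-fold. After removal of the GC trend, a choice made after seeing the data, 8 were. With a pseudocount of 10, ZNF177, ZNF709 and ZNF823 were no longer past 1.5-fold, while ZNF440 (TMM and total counts) and ZNF878 (total counts) came to be past it. No paired analysis was possible because each cell line has 1 library. Members with few reads, such as ZNF442, ZNF491 and ZNF177, are limited by depth.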

Other observations

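Zinc finger genes and pseudogenes beside the members differed in direction. The intervals of ZNF699, ZNF833P and ZNF788 were wholly negative, that of ZNF317 was wholly positive, and that of ZNF887P held both signs. ZNF699, which lies before ZNF559, had 62 reads in Ramos and 14 in Ramos640, or -1.70 on the log2 scale (95% counting interval -2.72 to -0.91). ZNF317, further toward the end of the chromosome, had 1920 and 1620 reads (0.14, 0.040 to 0.23). Among the pseudogenes of the second run, ZNF833P had 22 reads in Ramos and 1 in Ramos640 (-3.24, -9.45 to -1.45), ZNF788 had 91 and 47 (-0.56, -1.11 to -0.049) and ZNF887P had 30 and 20 (-0.20, -1.10 to 0.66). These genes were named after their values were seen.

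On the long arm, ZNF302 had 335 reads in Ramos and 96 in Ramos640, or -1.41 on the log2 scale. Its neighbours ZNF181 (119 and 52 reads, -0.80) and ZNF792 (384 and 195 reads, -0.59) were lower as well, whereas ZNF599 had 4 and 6 reads. These genes too were named after their values were seen.

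Among the other protein-coding genes between the members with at least 100 reads, the highest log2 fold changes were those of QTRT1, a subunit of the enzyme that places queuosine in tRNA (697 and 1115 reads, 1.06), P2RY11, a purine receptor (138 and 211 reads, 0.99), KRI1 (1969 and 2561 reads, 0.76), the readthrough gene PPAN-P2RY11 (0.70) and PPAN (0.67). PPAN-P2RY11 shares exons with both PPAN and P2RY11, so these values are not independent. The lowest values after ACP5 among these genes were those of ICAM5, an adhesion molecule (209 and 70 reads, -1.19), C19orf38 (319 and 117 reads, -1.06), KANK2 (5962 and 2551 reads, -0.84) and SPC24, a kinetochore subunit (563 and 364 reads, -0.25). Genes with fewer reads, among them TSPAN16 (22 and 1 reads, -3.24, -9.45 to -1.45) and LPPR2 (18 and 3 reads, -1.92, -4.61 to -0.43), had lower values with wide intervals. The flanks were taken as the nearest 10 protein-coding genes with at least 100 reads on each side, with zinc finger genes such as ZNF699 and ZNF317 left out. Those after ZNF490 and ZNF791 had a median log2 fold change of 0.33, with 1 lower and 1 higher by more than 1.5-fold. Those before ZNF559 had a median of 0.0070, with 3 lower and 0 higher. Over all genes 17.3% were lower and 14.6% higher.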
